A study of Mus musculus with 8 samples.

Results

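The cytosolic ribosomal protein genes, which encode the protein part of the ribosomes that translate nuclear-encoded mRNA, were examined in RNA-seq of cultured LLC cells with and without Ago2. They were taken by symbol as the protein-coding genes whose names begin with Rpl or Rps and a digit, or with Rplp, together with Rpsa. Symbols that contain -ps and the Rps6k kinases were left out. This gave 86 of the 55487 genes counted, of which 52 were named for the large subunit (Rpl or Rplp) and 34 for the small subunit (Rps or Rpsa). The naming also took in Rps19bp1, which encodes a binding partner of the Rps19 protein. It passed over Fau and Rack1, which encode a fusion of a ubiquitin-like protein with a small subunit protein and a scaffold protein on the small subunit.

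A ribosome holds a single copy of most of its proteins. Most ribosomal protein mRNAs begin with a C followed by a run of C and T bases, the terminal oligopyrimidine (TOP) motif. Through this motif mTORC1 and the binding protein LARP1 control their translation. Growing tumor cells depend on a high output of ribosomes, and several ribosomal proteins that are left unassembled bind Mdm2 and stabilize p53.

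LLC (Lewis lung carcinoma) is an established mouse lung carcinoma line. RNA from 4 wild-type and 4 ΔAgo2 cultures, labelled as biological replicates of 1 batch, was sequenced from stranded mRNA libraries, and the question was what loss of Ago2, the Argonaute protein that cleaves small RNA targets, changes in the cancer cells alone. Both groups grew in DMEM with 10% fetal bovine serum and penicillin-streptomycin, and the labels name no further treatment. ΔAgo2 cells were made with lentiviral CRISPR/Cas9 and puromycin selection, and the sources used here do not say which clone or clones were sequenced or that the wild-type cells carried a control vector, so the effects of clone and vector cannot be told apart from that of Ago2.

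The libraries held 39628101 to 68530912 counts on genes. Reads of Ago2, the targeted gene, numbered 15049, 19033, 34965 and 3842 in the wild-type libraries against 23871, 12319, 16662 and 16715 in the ΔAgo2 libraries, each in order of replicate. Its log2 fold change was 0.21 (adjusted p = 0.908, edgeR), so its RNA level did not separate the groups and did not check the labels. The epithelial keratins Krt8 (38.2 to 654 CPM) and Krt18 (75.2 to 601 CPM) were counted in every library and were highest in wild-type replicate 4. Krt19, a further epithelial keratin, was at only 0.149 to 3.54 CPM. Epcam had 1 count over all libraries, Cdh1 did not exceed 0.183 CPM, and of the lung markers Nkx2-1, Sftpb and Scgb1a1 were at 0 and Sftpc had 1 count, so the defining markers of normal lung epithelium were absent. The immune marker Ptprc had 6 counts in all, Cd3e and Hbb-bs had 0, and Cd68 ranged from 4.56 to 38.3 CPM. Of the fibroblast markers, Pdgfra ranged from 11.7 to 85.7 CPM and Col1a1, Col1a2 and Dcn did not exceed 7.81 CPM. Wild-type replicate 4 stood apart from the other libraries in the members described here and in its share of counts on mitochondrially encoded genes, which was 0.540% against 2.39 to 4.51%. Results are therefore given with and without it.

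The starts of a few ribosomal protein genes show the motif that the family shares and where it is missing from the annotated window. The RefSeq start table (GRCm38.p6) held 78 start windows for 66 of the 86 genes. In the following windows of 30 bases around the annotated start, written 5′ to 3′ on the strand of the gene, capitals mark the longest run of a C followed by at least 4 bases that are each C or T. Shorter runs are left in lower case. In each window 15 bases lie before the annotated first base. For a gene with several windows, the one whose start lay nearest the first base of the annotated gene was taken. Rps6 and Rpl15 are shown as members with a run, Rps27 beside its near-copy Rps27rt, and Rpl22l1 beside its parent Rpl22. Rps10 and Rpl24 are shown because both stood at levels far below those of the other core members.
Rps6 (chr4:86857353-86857382, minus strand): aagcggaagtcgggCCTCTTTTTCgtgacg
Rpl15 (chr14:18270972-18271001, minus strand): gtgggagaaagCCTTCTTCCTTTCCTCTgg
Rps27 (chr3:90213634-90213663, minus strand): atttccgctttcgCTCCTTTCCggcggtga
Rps27rt (chr9:114982725-114982754, minus strand): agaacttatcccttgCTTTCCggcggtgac
Rpl22 (chr4:152325711-152325740, plus strand): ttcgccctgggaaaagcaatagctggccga
Rpl22l1 (chr3:28805493-28805522, plus strand): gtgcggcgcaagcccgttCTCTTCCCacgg
Rps10 (chr17:27635230-27635259, minus strand): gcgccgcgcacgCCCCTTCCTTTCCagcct
Rpl24 (chr16:55966260-55966289, plus strand): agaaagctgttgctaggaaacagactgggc

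Such a run lay somewhere in 57.7% of the 78 windows of members and in 36.4% of all 32851 windows in the table. A run that began exactly at the annotated first base was found in 17.9% and 2.51%, and the exact place depends on how the start was annotated. The 7 letters CCGGAAG, searched on both strands of the 300 bases from 250 before to 50 after the start, were present in 34.6% of member windows and 8.86% of all windows. The windows of Rpl22 and Rpl24 printed above hold no run, and that of Rps28, a core member at 1008 TPM, holds none either. The window of Rps28 was chosen by the same rule. Whether other starts of these genes hold a run is not shown here.

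Most ribosomal protein mRNAs were abundant in LLC cells. Of the 86 genes, 55 had a mean over the 8 libraries of at least 1000 TPM, 78 of at least 100, 81 of at least 10 and 83 of at least 1. TPM, in which each count is divided by gene length and the library is set to a fixed sum, were used for all levels compared between genes. The median over the 86 genes was 1598 TPM. Rplp1 was highest, at 12409 TPM, followed by Rplp0 at 6685 and Rps15 at 6299 TPM. Per kilobase of the mRNA rather than of all exons, Rplp1 was again first, while Rps2 and Rpl13 came next, Rplp0 was at rank 5 and Rps15 at rank 10. Rplp0, Rplp1 and Rplp2 form the stalk of the large subunit that recruits the elongation factors, and Rps15 is a protein of the small subunit head. The lengths behind these TPM match the union of all annotated exons, which ran from 374 to 6270 bases over the members and can exceed the length of the mRNA itself, so a member with a long union has a TPM that is too low.

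**Figure D1:**
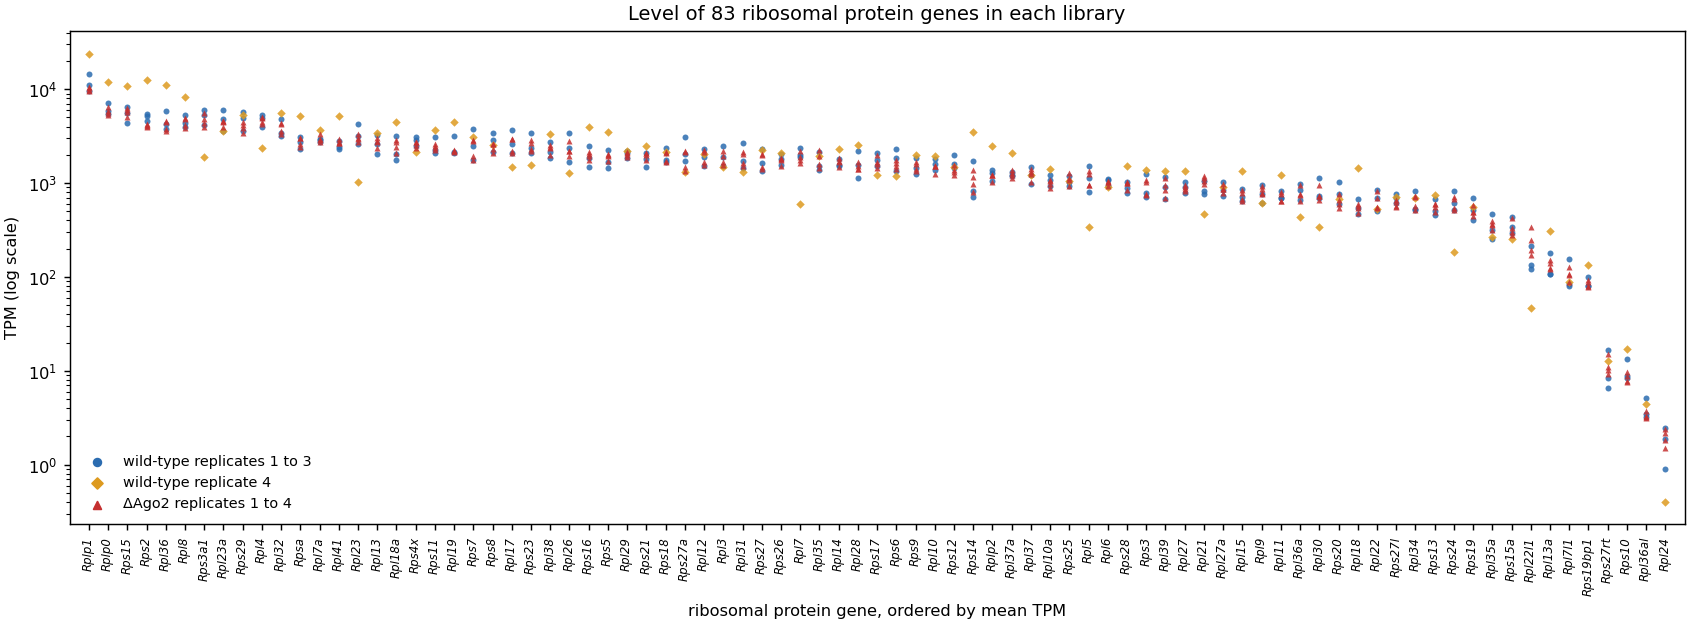
Level of the 83 ribosomal protein genes with enough counts to be tested, in TPM on a log axis, ordered by their mean over 8 libraries. Each point is 1 library, with circles for wild-type replicates 1 to 3, diamonds for wild-type replicate 4 and triangles for the 4 ΔAgo2 libraries, and the genes run from Rplp1 at 12409 TPM to Rpl24 at 1.70 TPM.

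The 3 members that were not tested had next to no counts. Rpl3l, a muscle form of Rpl3, had 6 counts over the 8 libraries, and Rpl10l and Rpl39l, forms of Rpl10 and Rpl39 known from testis, had 0. A count of 0 allows up to 3 counts. Taken over the total counts without TMM scaling, unlike the other CPM here, this limit was 0.0438 to 0.0757 CPM in these libraries. The limit covers counting error only.

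At the other end of the tested range, Rpl24 (1.70 TPM), Rpl36al (3.70 TPM) and Rps10 (10.2 TPM) were the lowest. Rpl24 and Rps10 encode core proteins of the large and small subunit. Rpl24 had 216 counts over all libraries, 47.0% of its exon bases overlap Gm28037 on the same strand, and 66.8% of the 100-base stretches of its transcript also occur there. Rps10 had 2927 counts, with 20.6% of its exon bases in RPS10-NUDT3 and 75.7% of its 100-base stretches shared with it. For Rpl13a, which had 39648 counts and a mean of 155 TPM, the figures were 35.4% and 55.2% with Gm45713. Gm28037, RPS10-NUDT3 and Gm45713 had 0 counts each. Rpl36al overlaps Gm49383, which had 11 counts, over 24.5% of its exon bases. A fragment that falls on 2 overlapping genes or on 2 copies of a sequence could have been left uncounted, and the levels of these 4 members are uncertain. Whether this lowered them was not tested.

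Ribosomal protein genes have many near-copies. Of the 86 genes, 76 share at least 1 stretch of 100 bases with another annotated gene, and 38 share at least 50% of such stretches. Of the 457 pseudogenes that share a stretch, those present among the deposited counts held 0.579 to 0.625% as many counts as the members in each library. Few counts were thus placed on them. How many reads with several matching places were dropped is not given in the sources used here.

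No ribosomal protein gene passed an adjusted p of 0.05 in the comparison of ΔAgo2 with wild-type cells. With edgeR, 0 of the 83 tested members were called higher and 0 lower after adjustment over all 14228 tested genes, of which 42 (0.295%) were called, 0.0773% higher and 0.218% lower. DESeq2 also called 0 members, and 399 (2.23%) of the 17926 genes to which it gave an adjusted p. At an unadjusted p under 0.05, edgeR had 1 member, Rps2, on the lower side and 0 on the higher side, and DESeq2 had 1. Of all tested genes, 7.34% had such a p with edgeR, 4.62% lower and 2.72% higher, and 6.48% with DESeq2. Fewer cells and less RNA per cell cannot be told apart in such bulk samples, and all values are relative to the total of each library.

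The point estimates leaned to lower levels in ΔAgo2 cells while wild-type replicate 4 was included. The log2 fold change was below 0 for 76 of the 83 members, against 58.8% of all tested genes, with a median of -0.38 and a range from -1.12 (Rps2) to 0.74 (Rpl22l1). The median over all tested genes was -0.11. Over the 1125 other tested protein-coding genes whose exon length did not exceed the median of the tested members, 1770 bases, it was -0.33.

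Without wild-type replicate 4 the values drew together near 0. The median of the members was -0.085, with a range from -0.41 (Rps27a) to 0.54 (Rpl22l1), and the medians of all tested genes and of the other short genes were -0.037 and -0.00026. Again 0 of 83 were called, against 0.777% of the 14541 genes then tested (0.289% higher and 0.488% lower). An unadjusted p under 0.05 was found for 0 members, against 12.6% of all tested genes (5.52% higher and 7.04% lower). The SD of the log2 fold changes over members dropped from 0.31 to 0.14. The estimates of 66 members were still below 0, against 54.2% of all tested genes, and 82 lay within 0.5 of 0, where 74.6% of all tested genes lay.

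The intervals give the precision of the estimates. With all 8 libraries the 95% interval of the log2 fold change lay within -1 to 1 for 29 members, and the median distance from the estimate to either end was 0.76. Without wild-type replicate 4 it lay within those limits for 77 members, and that distance was 0.55. The same limits held for 26.7% and 55.1% of all tested genes. These distances come from intervals with no adjustment and are not limits of detection, and larger differences could also go uncalled. With all 8 libraries Rps2, at -1.12, was not called. Leaving out wild-type replicate 2 moved the median to -0.56 and left 16 members with an unadjusted p under 0.05, all on the lower side, and 0 called. Of all tested genes, 8.37% were then lower at such a p and 0.541% were called.

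**Figure D2:**
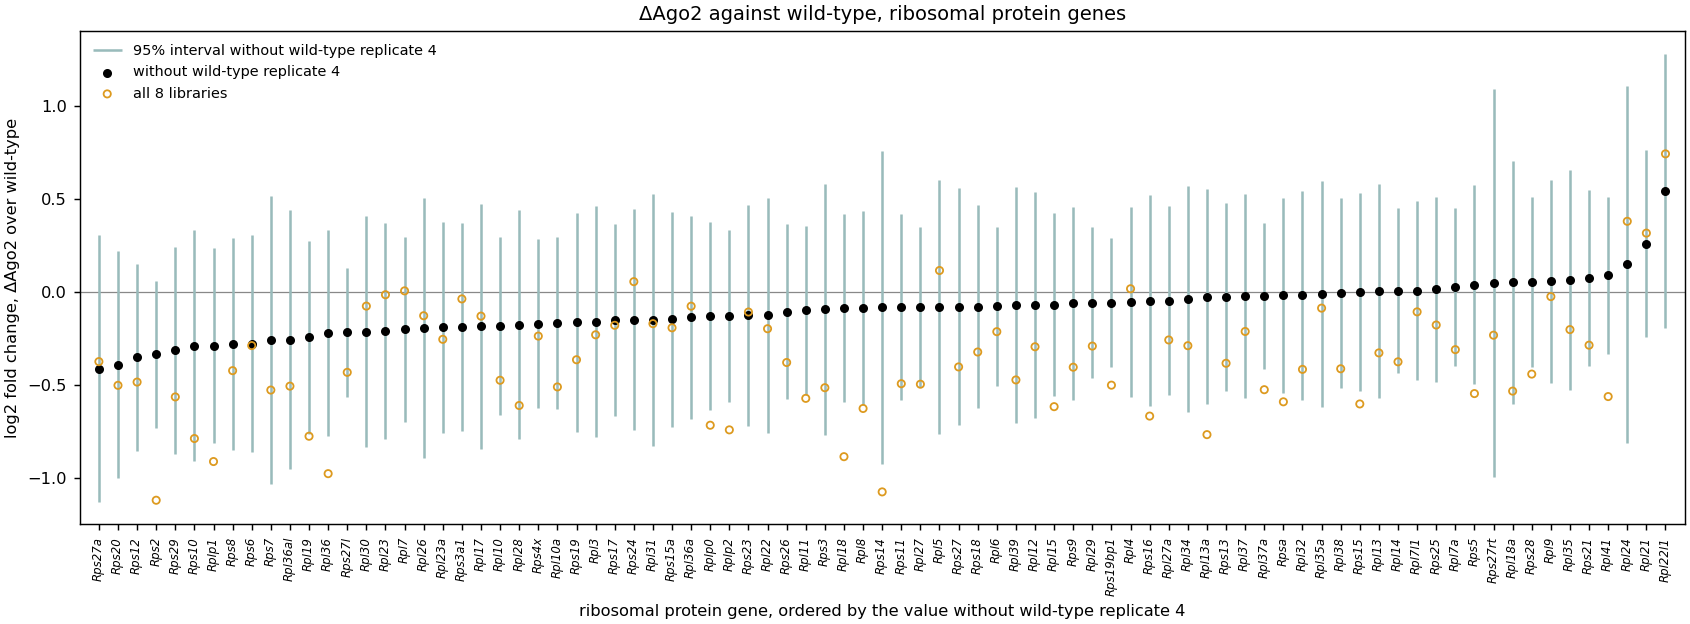
Log2 fold change of ΔAgo2 over wild-type for the 83 tested ribosomal protein genes. Filled points and bars give the estimate and its 95% interval without wild-type replicate 4, open circles the estimate from all 8 libraries, and the filled points lie between -0.41 (Rps27a) and 0.54 (Rpl22l1).

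The share of all counts that fell on the 86 genes showed where the spread lay. It was 10.2, 6.18, 7.32 and 11.5% in wild-type replicates 1 to 4 and 6.28, 7.09, 8.19 and 7.88% in ΔAgo2 replicates 1 to 4. The means were 8.80 ± 2.47% and 7.36 ± 0.857% (SD, n = 4 each), and 7.92 ± 2.10% for wild-type replicates 1 to 3. The wild-type libraries held both the lowest and the highest share and the ΔAgo2 libraries lay between them.

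Relative to each gene's own mean over the 8 libraries, the members moved together in most libraries. In wild-type replicate 1, 77 of 83 members stood above their mean, with a median deviation of 0.38 in log2 CPM, and in wild-type replicate 2 only 3 did, with a median of -0.49. Wild-type replicate 3 had a median of -0.097. The ΔAgo2 medians were -0.40, -0.18, 0.041 and -0.049, and 1, 4, 56 and 34 members stood above their mean. In these 7 libraries the deviations of the members had SDs of 0.13 to 0.25.

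Wild-type replicate 4 stood apart. Its median deviation was 0.82, the highest of the 8, and the SD over members was 0.74. Of the 83 members, 56 had their highest level of all libraries there and 8 their lowest. The lowest level of 55 members was in wild-type replicate 2 and that of 19 in ΔAgo2 replicate 1.

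**Figure D3:**
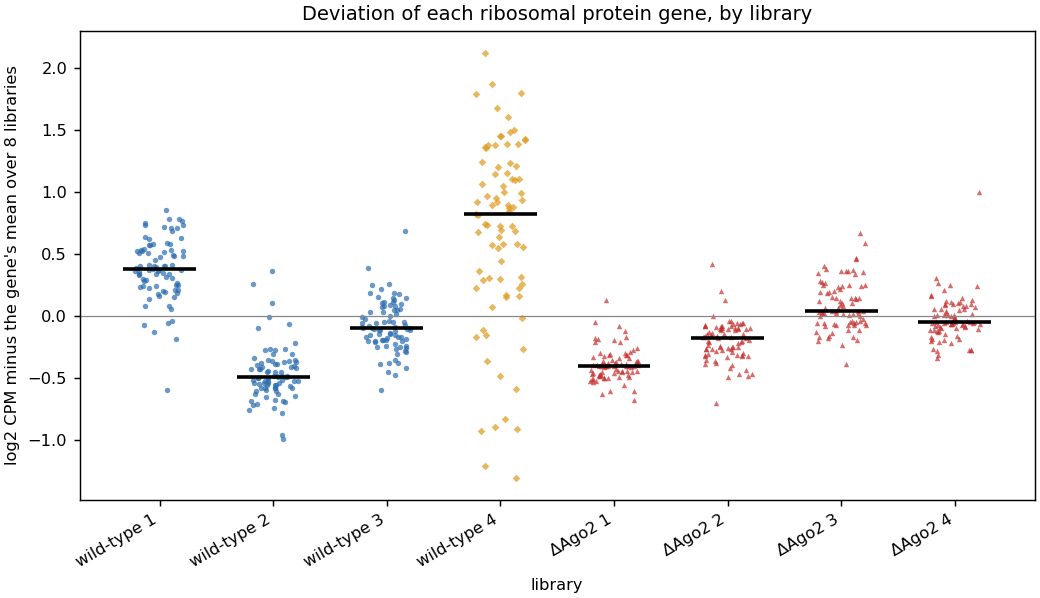
Deviation of each of 83 ribosomal protein genes from its own mean over 8 libraries, in log2 CPM, by library. Each point is a gene and the black bar is the median, which ran from -0.49 in wild-type replicate 2 to 0.82 in wild-type replicate 4, where the points also spread the most.

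Other mRNAs with the TOP motif, those of translation factors and their partners, had median deviations of 0.30, -0.23, 0.0025 and -0.065 in the wild-type and -0.27, -0.15, 0.16 and 0.072 in the ΔAgo2 libraries. Like those of the ribosomal proteins, these were high in wild-type replicate 1 and low in wild-type replicate 2 and ΔAgo2 replicates 1 and 2. In wild-type replicate 4 their median was near 0, but single genes lay far to both sides. Against the mean of wild-type replicates 1 to 3 in log2 CPM, Eef2 was at 1.74 and Npm1 at -2.33 there. Mitochondrial ribosomal protein genes were at 0.85 in wild-type replicate 4 and between -0.24 and 0.00032 in the others. The factors that assemble ribosomes were at -0.56 in wild-type replicate 4 and at most 0.26 from 0 elsewhere.

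Spread between replicates of 1 group was larger in wild-type than in ΔAgo2 cells, a difference that was not tested. The median SD of log2 CPM over members was 0.63 in wild-type cells, 0.46 in wild-type replicates 1 to 3 and 0.21 in ΔAgo2 cells. Among the 2299 other tested genes with a mean of at least 100 CPM it was 0.71, 0.32 and 0.17. As a check for a library deposited more than once, counts over the members were compared between libraries of a group, and the lowest chi-square per degree of freedom was 63.5, between ΔAgo2 replicates 1 and 2, so none was counted as a repeat.

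The proportion between the subunits overlapped between the groups. The summed TPM of genes named for the large subunit was 1.53 ± 0.0350 times that of genes named for the small subunit in wild-type and 1.56 ± 0.0234 times in ΔAgo2 cells (SD, n = 4 each). Rps19bp1 was left out of these sums. In wild-type replicates 1 to 3 the ratio was 1.52 ± 0.0186 (SD, n = 3). Without wild-type replicate 4 the groups overlapped only through wild-type replicate 1 (1.532) and ΔAgo2 replicate 3 (1.531).

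The excess in wild-type replicate 4 was larger for members of higher GC content. Against the mean of wild-type replicates 1 to 3 in log2 CPM, that library was above all 3 for 56 members, below all 3 for 8 and among them for 19, while for all tested genes 38.2% were above and 39.1% below. The largest excess was 5.47 times for Rps14 and the largest deficit 2.59 times for Rpl24, which had only 6 counts in that library. The next deficit was 2.23 times for Rpl7, which had 23233 counts there. The 8 members below were Rpl24, Rpl7, Rps24, Rpl22l1, Rpl23, Rpl5, Rps3a1 and Rpl30, none with a GC content over 52.1%. Over the 83 members, which share the same libraries, Spearman's rho between the GC content of the coding transcripts and this difference was 0.65.

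In the same way, rho between GC content and the log2 fold change was -0.62 with all 8 libraries and 0.044 without wild-type replicate 4. By GC content, the 14 members under 48% had a median difference of -0.14, the 39 from 48 to 54% of 0.72 and the 30 at 54% or more of 1.47 in log2 CPM. Other protein-coding genes with a mean of at least 100 CPM had medians of -1.65, 0.14 and 1.32 in the same bands. The members exceeded these genes in each band, by the most under 48%. What set wild-type replicate 4 apart was not tested.

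**Figure D4:**
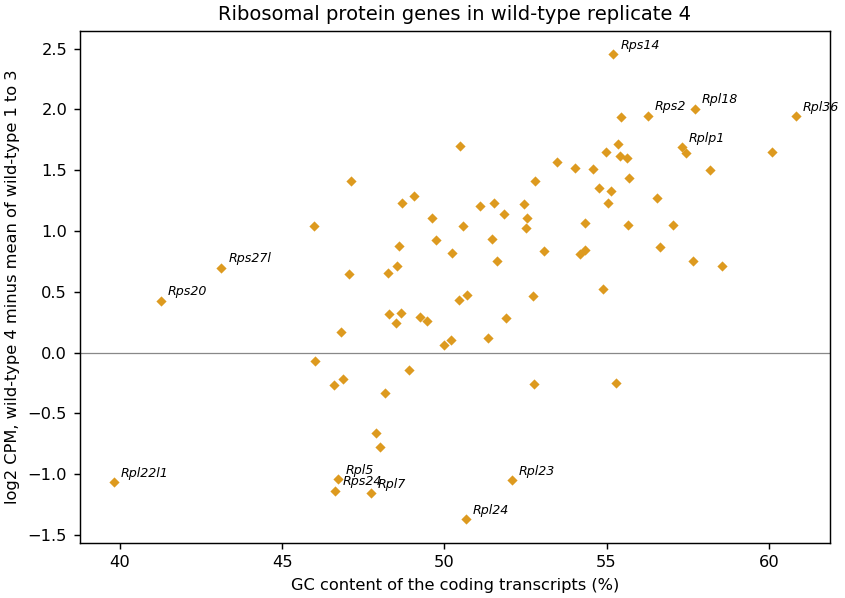
Difference in log2 CPM between wild-type replicate 4 and the mean of wild-type replicates 1 to 3 for 83 ribosomal protein genes, against the GC content of their coding transcripts in percent. Each diamond is a gene, and the differences run from -1.37 for Rpl24 to 2.45 for Rps14, with a Spearman's rho of 0.65. Rpl24 had only 6 counts in wild-type replicate 4.

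Rps2, a protein at the mRNA entry of the small subunit (ENSMUSG00000044533), had the smallest unadjusted p of the members. It stood at 2738, 2419, 2881 and 10311 CPM in wild-type replicates 1 to 4 and 1975, 2094, 2147 and 2219 CPM in ΔAgo2 replicates 1 to 4. Every ΔAgo2 value lay below every wild-type value, also without wild-type replicate 4, and no other member had groups that did not overlap. Of all tested genes, 2.98% were lower with no overlap, and 6.2% without that library. The log2 fold change was -1.12 (95% interval -2.18 to -0.059) with an adjusted p of 0.657 (edgeR). Without wild-type replicate 4 it was -0.34 (95% interval -0.73 to 0.058), with an adjusted p of 0.467, and with a GC correction of each library -0.64 (adjusted p = 0.495, edgeR). Of its transcript's 100-base stretches, 58.5% also occur in other genes, all 36 of them pseudogenes, and Snora64 lies within 7.32% of its exon bases on the same strand, so its count is uncertain.

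Rps14, a small subunit protein of the platform, showed how 1 library set an estimate. Its level was 1333, 435, 574 and 3789 CPM in the wild-type and 622, 531, 824 and 930.0 CPM in the ΔAgo2 libraries. Wild-type replicate 4 was far above the rest and the other 7 libraries overlapped. The log2 fold change was -1.08 (95% interval -2.44 to 0.29), with an adjusted p of 0.732, and -0.085 without that library. Rpl36, a large subunit protein with the highest GC content of the members (60.8%), was at 719, 365, 473 and 1922 CPM in the wild-type and 363, 394, 522 and 487 CPM in the ΔAgo2 libraries. Its log2 fold change of -0.98 (adjusted p = 0.706, edgeR) became -0.22. Rpl19 went from -0.78 to -0.25 and Rps10 from -0.79 to -0.29 in the same step.

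Of the stalk proteins, Rplp1 stood at 2337, 1219, 1635 and 5378 CPM in the wild-type and 1254, 1352, 1541 and 1465 CPM in the ΔAgo2 libraries. The ΔAgo2 values were close to each other, with wild-type replicate 2 below them and the other wild-type libraries above. Its log2 fold change was -0.91 (95% interval -1.89 to 0.068), with an adjusted p of 0.706, and -0.29 (95% interval -0.82 to 0.24) without wild-type replicate 4. Rplp0 had -0.72 and Rplp2 -0.74, both with the highest level in wild-type replicate 4, and both had -0.13 without it.

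Rpl5 and Rpl11 bind the smallest ribosomal RNA and, when unassembled, Mdm2, and Rpl23 binds Mdm2 as well. Rpl5 was at 1908, 803, 1288 and 608 CPM in the wild-type and 996, 1022, 1568 and 1399.9 CPM in the ΔAgo2 libraries. Its level in wild-type replicate 4 was the lowest of all, and the groups overlapped. The log2 fold changes were 0.11 for Rpl5, -0.57 for Rpl11 and -0.017 for Rpl23. They were -0.082, -0.10 and -0.21 without that library, where Rpl5 thus changed sign.

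Rps6, the substrate of the S6 kinases, was at 1182, 540.0, 862 and 854 CPM in the wild-type and 592, 661, 827 and 732 CPM in the ΔAgo2 libraries. Wild-type replicate 1 was highest, wild-type replicate 2 lowest, and the ΔAgo2 values lay between them. Its log2 fold change was -0.29 (95% interval -0.94 to 0.36) with and -0.28 without wild-type replicate 4. Rps27a, a fusion of ubiquitin with a small subunit protein, had -0.38 and -0.41.

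Of the other members with a known role, Rpsa, which also serves as a laminin receptor, had -0.59 and -0.020. Rps3, at the mRNA entry and with a part in DNA repair, had -0.52 and -0.096, and Rps19, a gene mutated in Diamond-Blackfan anemia, -0.37 and -0.16. Rpl10, which is added late to the large subunit, had -0.48 and -0.18, Rpl38, linked to the translation of Hox mRNAs, -0.41 and -0.0066, and Rps19bp1 -0.50 and -0.059. The second value of each is without wild-type replicate 4, and the adjusted p over these 14 genes with a known role was at least 0.706 with all libraries.

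On the higher side, Rpl22l1, a paralog that can take the place of Rpl22 in the large subunit (ENSMUSG00000039221), had the largest estimate. It stood at 139, 67.9, 70.3 and 41.6 CPM in wild-type replicates 1 to 4 and 91.1, 105, 144 and 192 CPM in ΔAgo2 replicates 1 to 4. Wild-type replicate 4 was lowest and ΔAgo2 replicate 4 highest, and wild-type replicate 1 lay among the ΔAgo2 values. The log2 fold change was 0.74 (95% interval -0.14 to 1.62), with an adjusted p of 0.726 (edgeR), and 0.54 (95% interval -0.19 to 1.28) without wild-type replicate 4, with an adjusted p of 0.527. With a GC correction of each library it was 0.25 (adjusted p = 0.871, edgeR), and without wild-type replicate 1 it was 1.15 (adjusted p = 0.396, edgeR). The parent, Rpl22, was at 798, 378, 595 and 689 CPM in the wild-type and 422, 444, 711 and 565 CPM in the ΔAgo2 libraries, with a log2 fold change of -0.20 and overlapping groups.

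As a percent of the TPM of Rpl22, Rpl22l1 was at 25.5, 26.3, 17.3 and 8.83 in the wild-type and 31.6, 34.6, 29.7 and 49.7 in the ΔAgo2 libraries. The means were 19.5 ± 8.17% and 36.4 ± 9.10% (SD, n = 4 each), and 23.0 ± 4.98% in wild-type replicates 1 to 3. All ΔAgo2 values lay above all wild-type values, with no test, and the ratio was singled out after the values were seen. Rpl22l1 has the lowest GC content of the members (39.8%) and Rpl22 one of 49.2%. Of the 100-base stretches of Rpl22l1, 50.8% occur in other genes, against 0 for Rpl22.

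**Figure D5:**
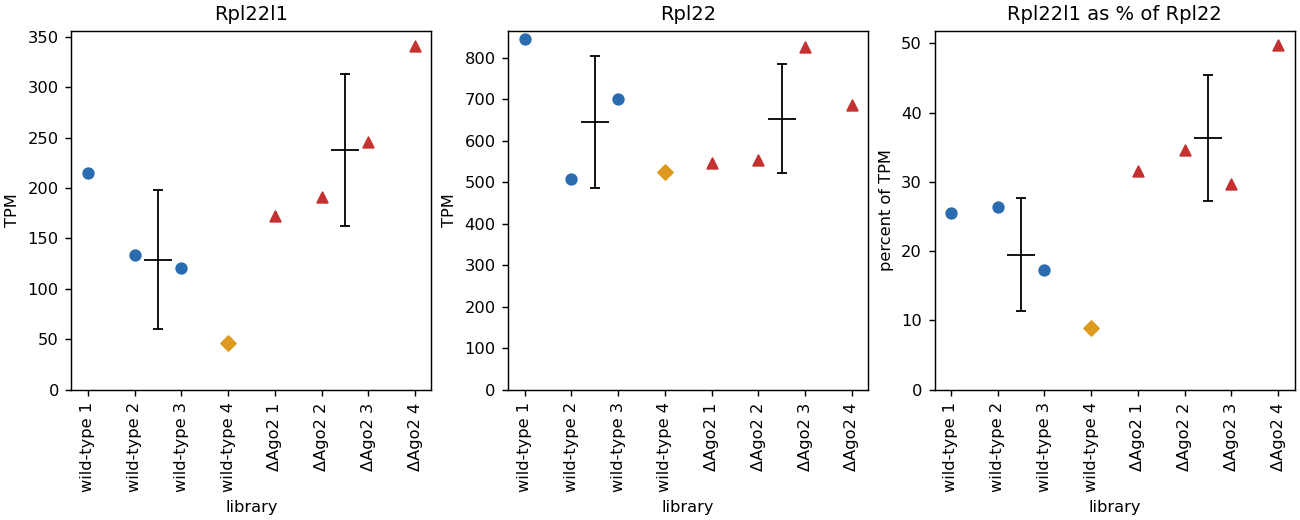
TPM of Rpl22l1 and of Rpl22, and Rpl22l1 as a percent of Rpl22, in each of the 8 libraries, with linear axes from 0. Circles are wild-type replicates 1 to 3, the diamond wild-type replicate 4 and triangles ΔAgo2, and bars give mean and SD (n = 4 per group), with percent values of 8.83 to 26.3 in wild-type and 29.7 to 49.7 in ΔAgo2 cells.

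The other paralogs of ribosomal proteins did not part the groups. Rps27l, a p53-responsive paralog, reached 29.7 to 56.4% of the TPM of Rps27 in the wild-type libraries and 27.7 to 41.5% in the ΔAgo2 libraries. Rpl7l1 ran from 3.55 to 14.7% of Rpl7 and from 4.05 to 6.74%, with the highest value in wild-type replicate 4. Rpl36al stayed at or under 1.01% of Rpl36a. Rps27rt, an expressed copy of Rps27, had 504 counts in all, 0.487 to 0.749% of the TPM of Rps27, and Rps27 shares 98.4% of its 100-base stretches with it, so these 2 cannot be told apart by most reads. Rps4l, a paralog of Rps4x that the annotation does not give as protein-coding, had 1 count.

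Rpl21 and Rpl24 had the next highest estimates. Rpl21, a large subunit protein, was at 1162, 658, 813 and 713 CPM in the wild-type and 887, 1059, 1190.1 and 1025 CPM in the ΔAgo2 libraries, with overlapping groups and a log2 fold change of 0.31 with all libraries and 0.26 without wild-type replicate 4. Rpl24 had 0.38 and 0.15, on 6 to 50 counts a library. Rps24, a small subunit protein, had 0.054 and changed sign to -0.15 without wild-type replicate 4, where it was lowest. Without that library, 5 members lay under -0.3: Rps20, Rps12, Rps27a, Rps29 and Rps2, all proteins of the small subunit, with Rps20 at -0.39. None of these 5 was called. Rps20, Rps12 and Rps29, and the subunit that the 5 share, were singled out after the values were seen.

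Neither Fau nor Rack1, the ribosome genes outside the naming, was called, with adjusted p of 0.836 and 0.742 (edgeR). Fau was at 996, 529.9, 655 and 2036 CPM in the wild-type and 675, 825, 862 and 902 CPM in the ΔAgo2 libraries, a log2 fold change of -0.37. Rack1 had -0.68, and without wild-type replicate 4 the values were 0.18 for Fau and -0.086 for Rack1. Both were highest in wild-type replicate 4.

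None of the lists of genes that make, import or regulate ribosomal proteins held a called gene, by edgeR, DESeq2 or limma-voom (48 genes called in all), with or without wild-type replicate 4 in edgeR. With all 8 libraries, 0 genes of these lists had an unadjusted p under 0.05. The median log2 fold change was -0.045 for 13 genes of RNA polymerase I and ribosomal DNA transcription, 0.11 for 11 small nucleolar ribonucleoprotein genes, 0.084 for 24 large subunit and 0.12 for 28 small subunit assembly factors, and 0.070 for 11 chaperones and importins. Without wild-type replicate 4 these were 0.058, 0.14, 0.013, -0.0012 and 0.043. For 6 transcription factors linked with ribosomal protein promoters, such as Myc (-0.19), the medians were 0.14 and -0.063. For 15 genes of mTORC1 and of TOP mRNA control, such as Larp1 (0.13) and Eif4ebp1 (-0.48), they were -0.24 and -0.13. Without wild-type replicate 4, 2 of these 15 genes were lower at an unadjusted p under 0.05 (edgeR), as were 7.04% of all tested genes. For the 16 other TOP mRNAs the medians were -0.12 and -0.11, with the smallest p for Eef1g, an elongation factor subunit (-0.90, adjusted p = 0.678, edgeR).

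Mitochondrial ribosomal proteins, which serve the separate ribosomes of mitochondria, were compared as the nearest related family. Of 77 tested, 0 were called by edgeR, DESeq2 or limma-voom. The median log2 fold change was -0.33, with 3 lower at an unadjusted p under 0.05, among them Mrpl28 (-1.40), and -0.033 without wild-type replicate 4, with 2 higher and 3 lower. Of all tested genes, 4.62% were lower at such a p with that library, and 5.52% were higher and 7.04% lower without it. The cytosolic and mitochondrial families thus had medians of -0.38 and -0.33 with that library and -0.085 and -0.033 without it, and their difference was not tested.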

How the data were processed

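RNA-seq of 4 wild-type and 4 ΔAgo2 LLC cultures was analysed. Per the labels and the study's methods, the authors aligned paired reads to ribosomal RNA and then to mm10 with STAR and counted them on genes with featureCounts. The values they deposited are raw counts for 55487 genes, and TPM made from the same reads. The annotation release and strand setting are not given in the sources used here. Symbols, exons and GC content came from GENCODE (GRCm38), with 93 identifiers left unmatched. After filterByExpr and TMM scaling, the groups were compared by the quasi-likelihood test of edgeR 4.0.16 under R 4.3.3 (two-sided), and p-values were adjusted by the Benjamini-Hochberg method over all 14228 genes. CPM are counts over TMM-scaled library sizes, except for the limit given for uncounted members, which uses total counts. Standard errors are the log2 fold change over the square root of F. Alternatives used DESeq2 1.42.0 and limma 3.58.1 (voom, and log2 TPM with a pseudocount of 1 or 0.1). The scripts were tested on simulated counts. Members named were those of the 5 smallest p in each direction, the 3 extreme log2 fold changes and 3 extreme TPM at either end, paralog pairs and genes with a known role. The members and lists were chosen with earlier results of these data known. Labels call the libraries biological replicates, and p-values set the difference between the groups against the spread between these libraries. The result for 1 further gene of these lists is not reported here.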

Additional observations from a re-analysis of the deposited data

Results flagged for a closer look

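In 3 of the 78 sets of 4 libraries examined, 1 library lay far from the others of its group by Dixon's ratio, the gap to the nearest library over the whole range, and chance gives about 1 in 20. All 3 were wild-type replicate 4 on the high side. For Rps2 in log2 CPM the ratio was 0.880, for Rps19bp1 in log2 CPM it was 0.904, and for the spread of the members' deviations in a library, with an SD of 0.742 there and 0.204 to 0.249 in the other wild-type libraries, it was 0.917. Rps19bp1 stood at 28.0, 27.4, 25.6 and 65.1 CPM in the wild-type and 22.6, 26.3, 25.7 and 28.4 CPM in the ΔAgo2 libraries. The cause was not tested.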

How the results depend on the processing

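In each of 19 alternative settings 0 ribosomal protein genes were called and their median log2 fold change stayed below 0, between -0.56 and -0.078. Over all genes these settings called from 1 (without ΔAgo2 replicate 1) to 399 (DESeq2). The median of all tested genes was -0.11 and became 0.033 with limma-voom, -0.0077 with library size alone, and 0.22 and 0.15 with log2 TPM (pseudocount of 0.1 and 1). Relative to it, the median of the members was lower by 0.050 to 0.43. On the log2 TPM scale 53 of 83 members were below 0. A GC correction of each library gave a median of -0.29. The difference in share of counts, ΔAgo2 minus wild-type, was -1.44 percentage points, and -2.32 to -0.56 with a library left out.

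Same-numbered libraries share only a number: their deviations from the group means correlated at -0.14, -0.049, 0.38 and 0.028. In a fit with a replicate block the median was -0.29, all tested genes had a median of 0.021, 18 genes in all were called instead of 42, and 0 of them were members.

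Of 664 alternative values of 35 single members, 0 passed an adjusted p of 0.05 (lowest 0.312), and 45 values of 11 members changed sign. With log2(TPM + 0.1) and log2(TPM + 1) the values were 0.030 and 0.030 for Rpl22, 0.30 and 0.30 for Rpl23, 0.0079 and 0.0078 for Rpl3, 0.15 and 0.15 for Rpl36a, 0.13 and 0.12 for Rpl7l1, and 0.12 and 0.10 for Rps27rt. With the GC correction they were 0.0045 for Rpl23, -0.026 for Rpl5, -0.080 for Rpl7 and -0.084 for Rps24. With the GC correction and the block they were 0.16 for Rpl23, -0.058 for Rpl7, 0.022 for Rps19 and -0.044 for Rps24. Rpl23 was at 0.055 with library size alone, 0.096 with limma-voom, 0.0012 without a filter and 0.10 with the block, Rpl36a at 0.016 with library size alone, and Rpl7 at -0.0040 with a minimum of 1 CPM in 4 libraries. With 1 library left out, the range was -0.21 to 0.32 for Rpl23, -0.23 to 0.11 for Rpl36a, -0.082 to 0.47 for Rpl5, -0.20 to 0.24 for Rpl7, -0.23 to 0.0053 for Rpl7l1, -0.86 to 0.00015 for Rps15, -0.15 to 0.39 for Rps24 and -0.50 to 0.048 for Rps27rt. The cause was not tested. Depth limited Rpl24, at 6 to 50 counts a library, more than the other tested members.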
